A study of Homo sapiens with 6 samples.

Results

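The keratin genes of both human keratin clusters were examined for called peaks of open chromatin in esophageal cell lines. The members were the protein-coding genes of GENCODE 44 on hg19 whose symbol is KRT followed by a number, on chromosomes 12 and 17, without the keratin-associated proteins. They were 55 of 20176 protein-coding genes, 27 on chromosome 12 and 28 on chromosome 17. By the usual division of the family, 5 were simple-epithelial, 20 stratified-epithelial, 26 hair-type (hair shaft and root sheath) and 4 other keratins. ATAC-seq, which cuts accessible DNA with the Tn5 transposase, had been carried out on 6 libraries, with 2 biological replicates of each of 3 lines. HET-1A is an immortalized, non-tumorigenic esophageal epithelial line and was kept in BEBM with its additives (libraries 1 and 2). KYSE-30 (libraries 4 and 6) and KYSE-150 (libraries 7 and 8) are lines of esophageal squamous cell carcinoma (ESCC) and were kept in RPMI/F12 with fetal bovine serum, so that line and medium cannot be told apart. No line was treated, and the replicates are cultures of 1 line, not separate donors.

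Keratins are the intermediate filament proteins of epithelial cells. A filament is built from a type I keratin, encoded on chromosome 17, and a type II keratin, encoded on chromosome 12, and KRT18 is the type I gene that lies beside its partner KRT8 on chromosome 12. KRT8 and KRT18 form the filaments of simple epithelia and are joined there by KRT7, KRT19 and KRT20. KRT5 pairs with KRT14, and also with KRT15, in the basal layer of stratified squamous epithelium. KRT4 and KRT13 replace them in the suprabasal layers of the esophagus, KRT1 and KRT10 do so in the epidermis, and KRT6, KRT16 and KRT17 appear in wounded or hyperproliferative epithelium.

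The sequences on which the results turn are given first, read 5′ to 3′ from hg19 in lower case. KRT8 was the keratin with peaks in the most libraries, and the first sequence is its RefSeq promoter, taken with the other promoters from the table on GRCh38.p14, 250 bases before to 50 after the start, and found once in hg19 (chr12:53320204-53320503, minus strand). This window, which belongs to 1 of the start sites of KRT8, overlapped a peak of KYSE-30 library 6.
KRT8 promoter: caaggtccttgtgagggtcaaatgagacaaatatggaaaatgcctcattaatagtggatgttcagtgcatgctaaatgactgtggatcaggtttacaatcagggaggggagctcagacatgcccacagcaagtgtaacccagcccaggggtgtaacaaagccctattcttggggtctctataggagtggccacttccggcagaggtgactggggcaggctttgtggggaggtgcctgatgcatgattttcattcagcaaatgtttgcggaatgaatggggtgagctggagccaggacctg
The AP-1 core site (TGACTCA or its reverse complement TGAGTCA) is in capitals in the following 200-bp windows centred on peak summits, on the plus strand. They are another KRT8 peak of KYSE-30 library 6 (chr12:53321129-53321328), the peak beside KRT31 in HET-1A library 2, which holds 2 such sites (chr17:39560325-39560524), and the peak in KRT32 in the same library (chr17:39621058-39621257).
KRT8 peak: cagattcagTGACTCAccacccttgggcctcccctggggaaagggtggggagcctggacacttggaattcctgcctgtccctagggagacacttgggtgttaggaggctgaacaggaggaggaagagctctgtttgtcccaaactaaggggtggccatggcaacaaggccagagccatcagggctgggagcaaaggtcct
KRT31 peak: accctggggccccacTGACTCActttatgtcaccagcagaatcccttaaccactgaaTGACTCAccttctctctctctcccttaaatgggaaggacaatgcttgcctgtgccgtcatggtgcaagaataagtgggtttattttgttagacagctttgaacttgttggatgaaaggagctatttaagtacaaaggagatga
KRT32 peak: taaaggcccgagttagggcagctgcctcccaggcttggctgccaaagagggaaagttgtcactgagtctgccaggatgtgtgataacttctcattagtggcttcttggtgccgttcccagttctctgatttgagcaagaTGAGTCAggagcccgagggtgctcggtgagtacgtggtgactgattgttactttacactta
The window of the only keratin peak found in KYSE-150 lies in KRT81 (chr12:52680482-52680681, plus strand) and holds no AP-1 core site.
KRT81 peak: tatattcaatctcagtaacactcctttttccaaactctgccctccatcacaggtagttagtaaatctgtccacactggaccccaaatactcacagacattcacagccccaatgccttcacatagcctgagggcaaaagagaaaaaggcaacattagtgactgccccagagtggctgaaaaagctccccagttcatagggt
KRT33A (chr17:39507031-39507330, minus strand) and KRT35 (chr17:39637354-39637653, minus strand) are hair keratins with a peak within 3 kb of a start site in HET-1A library 2. Their RefSeq promoters have TATAAA, in capitals, close to the start. Neither promoter window overlapped a peak, and the nearest peak edges in that library lay 1909 bp (KRT33A) and 2400 bp (KRT35) from the start.
KRT33A promoter: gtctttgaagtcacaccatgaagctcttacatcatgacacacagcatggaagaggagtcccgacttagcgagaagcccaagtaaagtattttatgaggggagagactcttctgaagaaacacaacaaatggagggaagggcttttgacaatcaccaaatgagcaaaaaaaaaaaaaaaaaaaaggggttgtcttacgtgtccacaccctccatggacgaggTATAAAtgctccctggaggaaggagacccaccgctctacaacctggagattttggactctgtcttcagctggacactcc
KRT35 promoter: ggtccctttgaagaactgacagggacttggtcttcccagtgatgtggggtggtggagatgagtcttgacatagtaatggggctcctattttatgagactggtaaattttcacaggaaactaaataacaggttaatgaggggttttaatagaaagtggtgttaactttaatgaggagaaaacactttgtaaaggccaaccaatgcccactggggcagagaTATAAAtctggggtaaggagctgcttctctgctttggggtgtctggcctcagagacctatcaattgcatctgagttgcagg

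The lists differed in length. HET-1A library 2 had 15979 peaks and its replicate 168, KYSE-30 library 6 had 11671 and its replicate 1255, and the KYSE-150 lists had 547 (library 7) and 259 (library 8). A peak's fold enrichment sets the tags at its summit against the background around it, so it ranks peaks within a list and is not a level to compare between lines. The genome background, recovered from the lists as a measure of relative depth, was highest in HET-1A library 2, with 3.34 tags per 200 bp, and lowest in KYSE-30 library 6, with 1.49. List length did not follow this measure. The short lists had backgrounds of 2.80 (KYSE-150 library 7), 2.64 (KYSE-150 library 8), 2.36 (KYSE-30 library 4) and 1.88 (HET-1A library 1). All of these lay above the lowest value, which belonged to the list of 11671 peaks. Why the short lists are short was not tested. An absent peak says that none was called in that library and not that the chromatin was closed. With 2 libraries against 2, an exact two-sided permutation test cannot give a p-value under 0.333, and the counts of keratin genes gave 1.00 for each of the 3 pairs of lines. Values are given per library.

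A keratin gene with a peak within 10 kb of its body was found mainly in HET-1A library 2. There were 25 such genes of 55 in that library (45.5%, Wilson 95% interval 33.0 to 58.5%), against 51.1% of all protein-coding genes. KYSE-30 library 6, the next longest list, had 1 (1.82%, 0.322 to 9.61%), against 41.6% of all genes. KYSE-30 library 4 had 1 (1.82%) against 6.52%, and KYSE-150 library 7 had 2 (3.64%) against 2.89%. HET-1A library 1 and KYSE-150 library 8 had 0, against 0.471% and 0.897%. Within 10 kb and on the full lists, the share of keratins was thus near the background in HET-1A library 2. It was below the background in KYSE-30 library 6, where the upper bound of the interval lay under the share of all genes. Neighbouring keratins share peaks and are not independent, so the intervals are too narrow. Keratin genes are short, with a median length of 7.10 kb against 27.2 kb for all protein-coding genes, and a short gene has a smaller window in which a peak can fall.

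**Figure D1:**
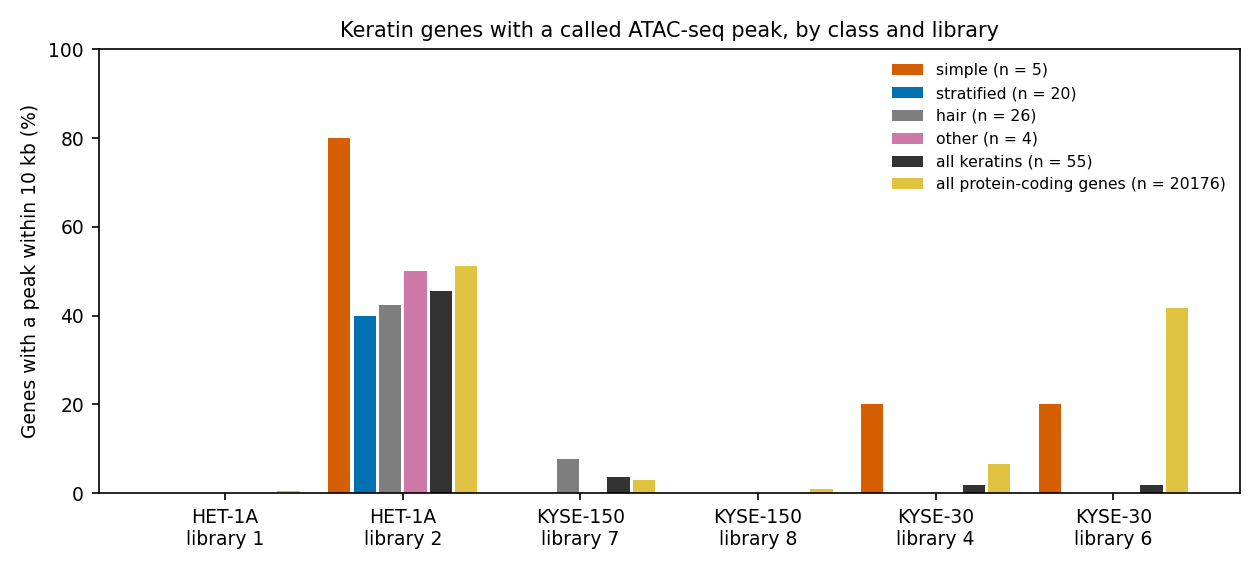
Percent of genes with a called peak within 10 kb of the gene body (y axis) in each of the 6 libraries (x axis), for the 4 keratin classes, all 55 keratins and all 20176 protein-coding genes. In HET-1A library 2 the keratin bar (45.5%) is close to that of all genes (51.1%), and in KYSE-30 library 6 it is 1.82% beside 41.6%.

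Peaks at the start sites themselves were fewer. Within 3 kb of a transcription start site, 9 keratins had a peak in HET-1A library 2 (16.4%, against 35.3% of all protein-coding genes). They were the simple keratins KRT7, KRT8 and KRT18, the stratified keratins KRT6A, KRT15 and KRT17, and the hair keratins KRT32, KRT33A and KRT35. KRT8 was the 1 keratin with such a peak in KYSE-30 library 6 (against 28.6% of all genes). The other libraries had 0, against 0.0942% of all genes in HET-1A library 1 and 3.87% in KYSE-30 library 4. For KYSE-150 the background was 1.79% (library 7) and 0.362% (library 8).

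Counted over peaks, the keratin windows, which cover 1.23 Mb, held 23 peaks of HET-1A library 2 (0.144% of its list, 0.0959 to 0.216%), 3 of KYSE-30 library 6 (0.0257%, 0.00874 to 0.0756%), 1 of KYSE-30 library 4 and 1 of KYSE-150 library 7. The intervals of the longest lists did not overlap, and they cover counting error only. With 0 peaks, the lists of HET-1A library 1 and KYSE-150 library 8 allow a share of up to 1.79% and 1.16%, which is far above the share in any other list, so that these short lists give no information on keratins. Per length, HET-1A library 2 had 18.7 peaks per Mb in keratin windows against 7.66 in the windows of all genes, whereas KYSE-30 library 6 had 2.43 against 5.59. By this count the keratin windows were denser than gene windows in general in the first library and sparser in the second. The windows of all genes cover 1514 Mb and include longer gene bodies, so the windows compared are not alike. In HET-1A library 2, 1-Mb windows with at least 10 genes held a median of 10 peaks on chromosome 12 and 17 on chromosome 17. Their maxima were 27 and 34. The spans of the keratin clusters had 19.9 and 18.2 peaks per Mb, under both maxima and, on chromosome 17, close to the median.

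Among the simple keratins, KRT8 had the most peaks. It accounted for the 1 keratin region of 27 with a peak in more than 1 library (3.70%), in HET-1A library 2 and KYSE-30 library 6, against 20.9% of the 23972 merged regions of all 6 lists. No keratin region had a peak in both libraries of the same line, so that this KRT8 peak was found in different lines and not again in the replicate of either.

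KRT8 had 2 other peaks in KYSE-30 library 6. One (chr12:53320071-53320423, fold enrichment 3.66, q-value 0.00473) had its summit 31 bp from a start site and overlapped the RefSeq promoter printed above, and the other (chr12:53321076-53321330, fold enrichment 4.91, q-value 3.48e-06) lay 976 bp from that start and holds the AP-1 core site. KYSE-30 library 4 had 1 keratin peak, also at KRT8, 273 bp beyond its 3′ end (chr12:53290462-53290698, fold enrichment 4.40, q-value 7.42e-05). HET-1A library 2 had a peak on the same side of the gene (chr12:53289223-53289422, fold enrichment 3.58), which did not overlap it. A peak within 10 kb of KRT8 was thus called in 1 HET-1A library and in both libraries of KYSE-30, where the positions differed. The annotated body of KRT8 is 52768 bp long, against a keratin median of 7.10 kb, so it has a larger window for peaks than most keratins.

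KRT18, the filament partner of KRT8, had 1 of the stronger keratin peaks of HET-1A library 2. Its summit lay 55 bp from the KRT18 start (chr12:53342570-53342950) with 30 tags over a local background of 4.82, a fold enrichment of 5.33 and a q-value of 1.46e-11. The annotated body of KRT8 reaches into KRT18, so this peak is also counted for KRT8. No peak within 10 kb of KRT18 was called in the other 5 libraries, and in KYSE-30 library 6 the nearest peak was 21.3 kb from the gene. KRT7, a keratin of glandular epithelia, had a peak in HET-1A library 2 with its summit 138 bp from a start (chr12:52637896-52638119, fold enrichment 4.17, q-value 4.87e-06), which holds an AP-1 core site. KRT19 had no start-site peak, and its 1 peak in that library lay 4.38 kb away, in the neighbouring KRT15. KRT20, an intestinal keratin, had no peak within 10 kb in any library, and the nearest of HET-1A library 2 was at 16.8 kb.

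Of the 20 stratified keratins, 8 had a peak within 10 kb in HET-1A library 2 and 0 in each of the other libraries. Of the basal keratins, KRT15 had a peak with its summit 265 bp from a start (chr17:39675261-39675484), with 34 tags over a local background of 9.72 and a fold enrichment of 3.26. KRT5 and KRT14, the defining pair of the basal layer, had no peak within 10 kb in any library. In HET-1A library 2 the nearest peaks were 21.1 kb from KRT5 and 32.8 kb from KRT14, and in KYSE-30 library 6 they were 301 and 102 kb away. The esophageal suprabasal keratins KRT4 and KRT13 also had none in any library, with the nearest peaks of HET-1A library 2 at 13.9 and 13.3 kb.

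Of the 5 keratins of wounded epithelium, KRT6A and KRT17 had a start-site peak, in HET-1A library 2. The KRT6A peak of HET-1A library 2 had its summit 124 bp from the start (chr12:52887067-52887266), with 16 tags over 3.82 and a fold enrichment of 3.53. The KRT17 peak lay 49 bp from the start (chr17:39780859-39781124) and had 31 tags over a local background of 10.9, a fold enrichment of 2.70. That local background was 3.25 times the genome background of the library, the highest of its 23 keratin peaks, so that a low fold enrichment went with many tags. KRT16 was counted through the KRT17 peak, at 8.71 kb. KRT6B was counted through a peak at 3.64 kb that KRT75 shares, and the other KRT6 gene, KRT6C, had none. KRT6 genes are near copies of each other, and of the 75-bp stretches within 500 bp of their 5′ ends, 67.0% were unique in hg19 for KRT6A, 67.2% for KRT6B and 61.5% for KRT6C, the lowest of the 55 genes. The value was 87.5% for KRT14 and 100% for KRT5. All 28 keratin peaks lay in fully unique sequence, and 38 of 55 genes had fully unique 5′ ends.

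The remaining stratified keratins with a peak in HET-1A library 2 were KRT1, at 2.04 kb, KRT3, a corneal keratin with a peak in its body, and KRT10, at 7.27 kb. The peak beside KRT10 (chr17:38966876-38967096) had a fold enrichment of 5.23, but its nearest start site was that of a long non-coding RNA. The stratified keratins without a peak in any library were KRT2, KRT4, KRT5, KRT6C, KRT9, KRT12, KRT13, KRT14, KRT76, KRT77, KRT78 and KRT79.

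Simple keratins with a peak within 10 kb numbered 4 of 5 in HET-1A library 2 (80.0%, 37.6 to 96.4%) and stratified keratins 8 of 20 (40.0%, 21.9 to 61.3%). The difference was 40.0 percentage points with a 95% interval of -7.51 to 64.4, which includes 0. The 10-kb counts of these few genes thus do not separate the classes. Both shares are read against 51.1% of all genes. In each KYSE-30 library the difference was 20.0 percentage points (-2.97 to 62.4) and rested on KRT8 alone, a gene with a long annotated body. In HET-1A library 2, start-site peaks were found for 3 of the 5 simple and 3 of the 20 stratified keratins. Of all protein-coding genes, 35.3% had such a peak there. The simple share lay above this background and the stratified share below it, so the difference does not rest on the simple keratins alone. Start-site and gene-body peaks each gave a difference of 45.0 percentage points, for which no interval was computed. Within 10 kb, KRT19, KRT16 and KRT6B were counted through a peak shared with a neighbour, so the genes are not independent.

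Of the 26 hair keratins, 11 had a peak within 10 kb in HET-1A library 2 (42.3%, 25.5 to 61.1%). The share was like that of the stratified class, and its interval includes the 51.1% of all genes. KRT32, of the hair cuticle, had 40 tags over a local background of 7.24, the most tags of any keratin peak (chr17:39621029-39621312, fold enrichment 4.98, q-value 6.36e-14), and its summit lay 2480 bp from the start. KRT33A had 2 peaks, 1963 and 2355 bp from its start, with fold enrichments of 4.20 and 4.44. KRT35 had the weakest keratin peak, with a fold enrichment of 2.54 and a q-value of 0.0183. A peak in the body of KRT86 that also lay within 10 kb of KRT81 (chr12:52674117-52674497) had a fold enrichment of 5.92 and a q-value of 8.19e-15. KRT86 is annotated with a long body that spans KRT81, and the nearest start to that peak was that of a long non-coding RNA. The peak of KYSE-150 library 7 printed above (chr12:52680473-52680672, 17 tags over 3.16, fold enrichment 4.33, q-value 0.000222) lay in KRT86 and KRT81, 4736 bp from the KRT81 start, and did not overlap it.

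The peak beside KRT39 (chr17:39113048-39113263) had a fold enrichment of 4.60. The other hair keratins with a peak were KRT31, whose peak was nearest to a long non-coding RNA start (1750 bp), KRT36, KRT75, KRT82 and KRT84. Those without one in any library were KRT25 to KRT28, KRT33B, KRT34, KRT37, KRT38, KRT40, KRT71 to KRT74, KRT83 and KRT85. Among the 4 other keratins, KRT80 had 3 peaks, with fold enrichments of 4.30, 4.57 (chr12:52569830-52570079, in the gene body) and 2.69. The peak of 4.30 lay outside the gene, with its summit 35 bp from the start of the long non-coding RNA LINC00592. The peak beside KRT23 (chr17:39071496-39071810) had the highest fold enrichment of all keratin peaks, 6.45, with 27 tags over 3.34. It was 7.14 kb from KRT23, and its nearest start was that of a long non-coding RNA. KRT24 and KRT222 had none.

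**Figure D2:**
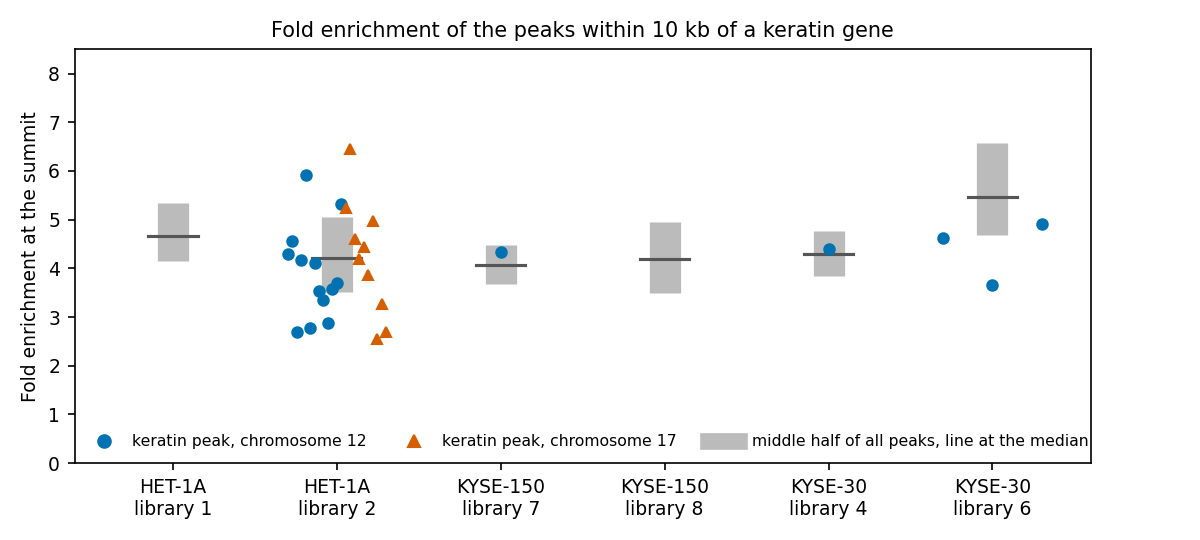
Fold enrichment at the summit (y axis) of each peak within 10 kb of a keratin gene, by library (x axis), with circles for chromosome 12 and triangles for chromosome 17. Grey bars span the quartiles of each whole list and the dark line is its median. The 23 peaks of HET-1A library 2 run from 2.54 to 6.45 around the list median of 4.22, and the 3 of KYSE-30 library 6 lie under its median of 5.47.

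As a set, the 23 peaks of HET-1A library 2 were ordinary members of their list. Their median fold enrichment was 4.12, against 4.22 for the list, and their median rank by p-value stood at 61.6% of the list, with the best at 10.3% and the last at 99.8%. Of these, 10 lay in a keratin gene body, 10 lay within 3 kb of a keratin start, and 5 had the start of a long non-coding RNA as the nearest. A total of 8 peaks were counted for 2 keratins each. At the genome background, the lowest fold enrichment called was 2.99 (12 tags) in HET-1A library 2 and 3.62 (8 tags) in KYSE-30 library 6, so that the lists reach down to different levels. The list of HET-1A library 2 was also cut to its 11671 peaks of smallest p-value, the length of that of KYSE-30 library 6. It then held 15 keratin peaks near 16 of the 55 keratins, a smaller share than the 44.4% of all genes. This cut was chosen after the data were seen.

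By cluster, HET-1A library 2 had a peak within 10 kb of 13 of 27 keratins on chromosome 12 (48.1%, 30.7 to 66.0%) and 12 of 28 on chromosome 17 (42.9%, 26.5 to 60.9%). The other genes of these chromosomes stood at 48.0 and 66.7%, so that the keratins were at the chromosome's level on 12 and below it on 17. Within the clusters, the longest stretch without a peak was 179 kb on chromosome 12, with KRT5, KRT71, KRT74, KRT72, KRT73 and KRT2. On chromosome 17 it was the first 166 kb of the cluster's span, with KRT222 and KRT24 to KRT28, and the nearest peak outside the span lay another 84.1 kb away. The median distance from a keratin to the nearest peak was 11.1 kb on chromosome 12 and 10.7 kb on chromosome 17, against 8.70 kb over all genes.

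**Figure D3:**
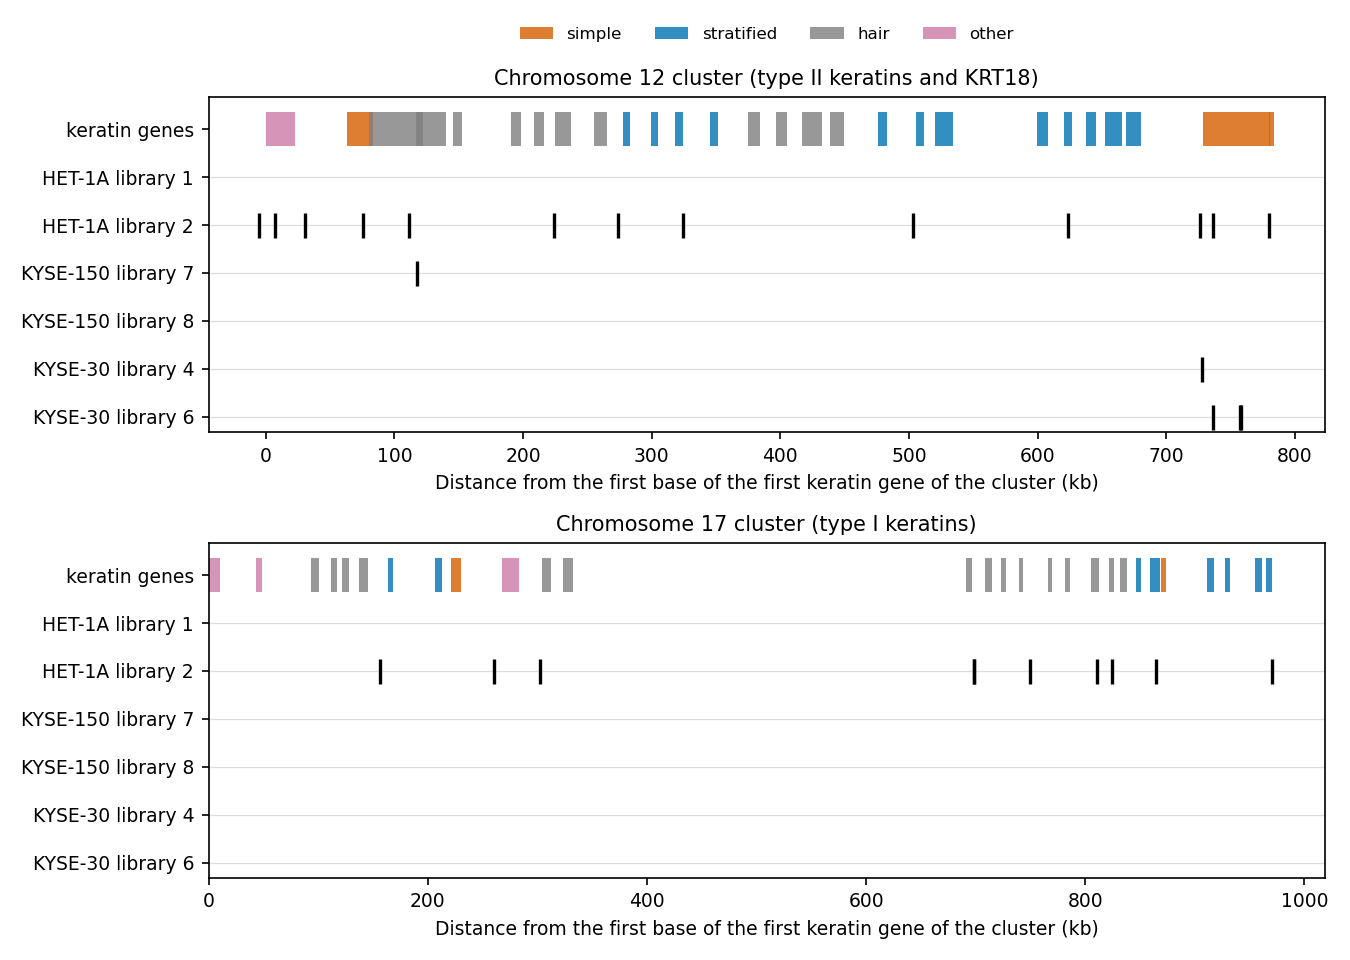
Map of both keratin clusters with the distance from the first keratin gene in kb (x axis), the genes coloured by class (top row of each panel), and a tick at the summit of each peak within 10 kb of a keratin gene, 1 row per library. HET-1A library 2 has 13 ticks on chromosome 12 and 10 on chromosome 17, some too close to tell apart, and those of KYSE-30 libraries 4 and 6 stand at KRT8.

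In KYSE-30 library 6 the chromosome 17 cluster held no peak. The span from 10 kb before KRT222 to 10 kb after KRT17 is 0.990 Mb long and has 28 keratins, and the flanking peaks were 62.7 and 53.8 kb outside it. HET-1A library 2 had 18 peaks there. Chromosome 17 as a whole was poor in peaks in KYSE-30 library 6, with 3.27% of the list against 6.31% in HET-1A library 2, and 31.7% of its other genes had a peak within 10 kb, against 48.3% of those of chromosome 12. In the replicate, KYSE-30 library 4, chromosome 17 had 7.57% of the list. The part of this difference between replicates in the empty cluster was not tested. Of the 44 1-Mb windows of chromosome 17 with at least 10 genes, 3 had no peak in KYSE-30 library 6, and every window had a peak in HET-1A library 2.

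On chromosome 12, where the other genes had peaks as often as in HET-1A library 2, KYSE-30 library 6 had 4 peaks in the cluster's span of 0.804 Mb, against 16. A gap of 691 kb held 24 of the 27 keratins, from KRT7 to KRT78. The median distance to the nearest peak was 164 kb for the keratins of chromosome 12 and 209 kb for those of chromosome 17 in this library, against 24.3 kb over all genes. By class, simple keratins stood at a median of 21.3 kb, stratified keratins at 174 kb and hair keratins at 216 kb. Both the stratified and the hair class were thus without a peak within 10 kb in both KYSE-30 libraries. Of all genes, 41.6% had one in library 6 and 6.52% in library 4.

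**Figure D4:**
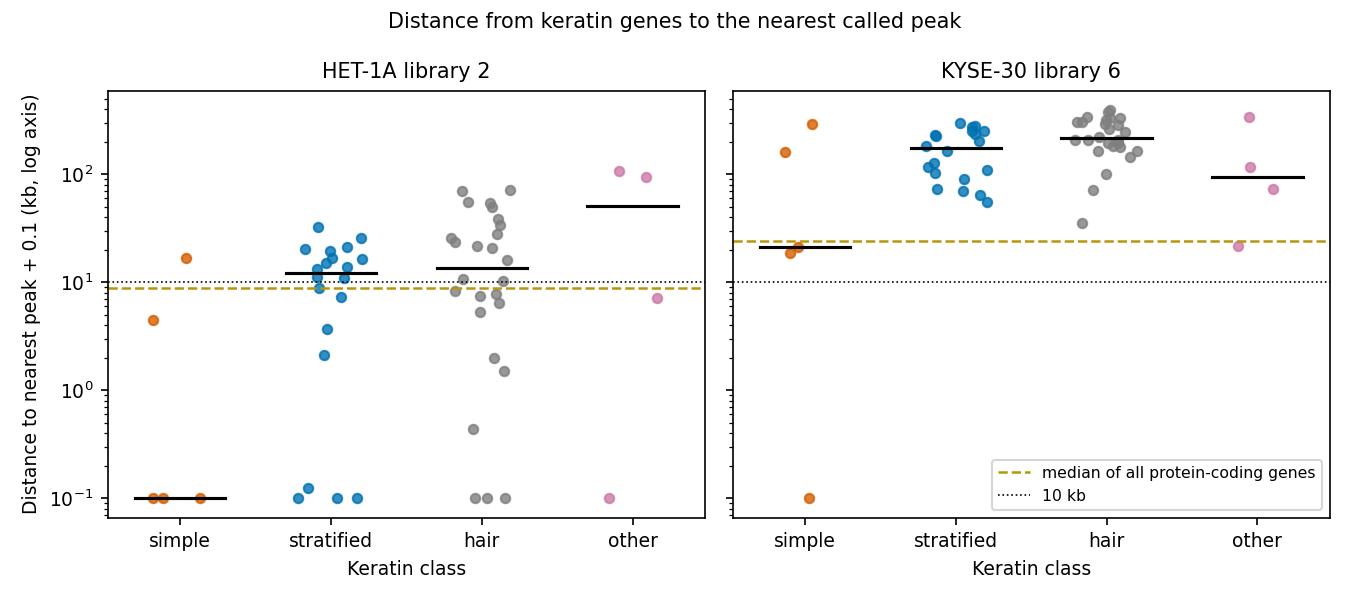
Distance from the body of each keratin gene to the nearest peak, plus 0.1 kb (y axis, log scale), by class (x axis) in HET-1A library 2 and KYSE-30 library 6. Points are genes, black bars are class medians, the dashed line is the median of all protein-coding genes (8.70 and 24.3 kb) and the dotted line is 10 kb. In KYSE-30 library 6 only KRT8 lies under the dotted line.

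Within 200 bp around the summits, the AP-1 core site was found in 3 of the 23 keratin peaks of HET-1A library 2 (13.0%, at KRT7, KRT31 and KRT32), against 21.7% of all its peaks, and in 1 of the 3 of KYSE-30 library 6 (at KRT8), against 26.1%. The GC box GGGCGG was in 13.0% of the HET-1A keratin peaks against 29.2%, and TATAAA in 4.35% against 5.76%. The p63 recognition motif, a decamer, was in 0 of the 23 against 6.24%. The keratin counts are small and were not tested, and a match describes letters and not a bound site.

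RefSeq promoters were matched for 34 of the 55 keratins, with 38 entries. TATAAA on either strand was found in 21 of the 34 genes (61.8%), against 14.0% of all 27305 genes in the table. Counted on the gene's strand and 25 to 35 bp before the start, where a TATA box is usually placed, it was found in 16 (47.1%) against 2.75%, a window chosen after the motifs were seen. Hair keratins had it in 12 of 22 and stratified keratins in 3 of 9. The table does not hold every start site of a gene, and these counts cover the entered starts only. The GC box stood in 15.8% of the 38 keratin promoters against 45.0% of all 35116, the p63 motif in 21.1% against 6.63%, and the AP-1 core site in 0 against 4.95%. The 21 keratins that were not matched were KRT1, KRT6A, KRT6B, KRT6C, KRT7, KRT13, KRT14, KRT15, KRT16, KRT17, KRT18, KRT19, KRT23, KRT72, KRT77, KRT78, KRT80, KRT81, KRT83, KRT86 and KRT222.

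Markers of epithelium, only some of them particular to squamous epithelium, were read alongside, since KRT5 and KRT14 are among them. Of 10 markers, 6 had a peak within 10 kb in HET-1A library 2 (TP63, CDH1, EPCAM, DSP, PKP1 and KLF5) and 5 in KYSE-30 library 6 (TP63, EPCAM, GRHL2, PKP1 and KLF5), while KRT5, KRT14 and SOX2 had none in either. These shares stand near the 51.1 and 41.6% of all genes. Of 8 mesenchymal markers, 2 (COL1A1 and FN1) and 3 (VIM, ZEB2 and TWIST1) had a peak in these libraries, and of 4 blood markers 1 (SPI1) and 2 (CD79A and SPI1). With these backgrounds the markers say little about cell type. The short lists held KLF5, in KYSE-150 library 7, and no other of these markers, so that the labelled cell type could not be checked there either.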

How the data were processed

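The members and lists were chosen with earlier results of these data known. Per the labels and methods, the authors mapped reads to hg19 with bowtie2 2.3.3.1, marked duplicates with picard 2.2.1, removed blacklisted regions with bedtools 2.7.1, shifted reads to allow for the Tn5 cut, and used only fragments shorter than 100 bp. Each library was given to MACS2 2.1.0.20160309 on its own, at a q-value of 0.05. The deposited lists give a score for each peak (a whole-number form of the q-value), a fold enrichment, which is a ratio over the local background, and −log10 of the p-value and q-value. Tags and local background were recovered from fold and p within a tolerance of 0.001, tested on simulated data. Read totals were not used here, and 1 region is not reported in detail here. Peaks were assigned to genes of GENCODE 44 (lifted to hg19) within 10 kb of the body or 3 kb of a start, with 1 bp of overlap to merge regions. A count of 0 was given an upper limit of 3 counts. Shares have Wilson 95% intervals. Nothing was tested between lines beyond the exact permutation test of gene counts. Named were the simple keratins, keratins with a start-site peak, those near a region found in both libraries of a line and the 10 keratin peaks of highest fold enrichment. Other names and the choice of printed sequences followed the values. The alternatives were other distances, start sites, nearest-start assignment, stricter q-values, equal list lengths, an overlap of 50%, a peak in either library and left-out libraries. Python 3.11.15, numpy 2.4.6, pandas 2.3.3, scipy 1.17.1 and matplotlib 3.10.9 were used.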

Additional observations from a re-analysis of the deposited data

How the results depend on the processing

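Counts of keratin genes followed the distance allowed and the length of the list. In HET-1A library 2 the 25 genes became 10 with peaks in the gene body, 9 with start-site peaks, 48 within 50 kb, 0 with 168 peaks per library and 16 with the list cut to the length of that of KYSE-30 library 6, a cut chosen after the data were seen. In KYSE-150 library 7 the 2 genes became 5 within 50 kb, 1 by nearest start, and 0 by start-site peaks or with 168 peaks. In KYSE-30 library 4 the 1 gene became 2 within 50 kb and 0 by gene body, start-site peaks or 168 peaks, and in KYSE-30 library 6 it became 5 within 50 kb and 0 with 168 peaks. With 168 peaks per library the share of peaks near keratins was 0 in HET-1A library 2, KYSE-150 library 7 and KYSE-30 libraries 4 and 6. Regions found in both libraries of a line numbered 0 in each line. Counting a peak in either library gave 23 in HET-1A, 1 in KYSE-150 and 4 in KYSE-30, and leaving out each library in turn gave 0 to 23, 0 to 1 and 1 to 3. The remaining 57 values stayed within 1.5 times or the interval of the main value, and they include values of 0 that stayed 0. Counts and shares cannot fall under 0, so only the differences between simple and stratified keratins could reverse, and none did. In KYSE-30 library 4 that difference fell from 20.0 to 0 percentage points with gene-body or start-site peaks. The short lists and unequal depth limit every comparison of lines. No paired analysis was possible because the lines share no replicate numbers.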

Other observations

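Genes for proteins that bind keratin filaments or tie them to desmosomes and hemidesmosomes were also read, 10 in number. In HET-1A library 2, 9 had a peak within 10 kb (DSP, PPL, EVPL, PLEC, DST, PKP1, PKP3, JUP and EPPK1), against 51.1% of all protein-coding genes. In KYSE-30 library 6, 7 had one (PPL, EVPL, PLEC, DST, PKP1, PKP2 and JUP), against 41.6%. A longer gene has a larger window for peaks, and the lengths of these 10 genes were not compared with those of all genes. DST, which encodes a linker of the hemidesmosome, reached a fold enrichment of 6.68 in HET-1A library 2 and 8.04 in KYSE-30 library 6. JUP, plakoglobin, lies on chromosome 17 close beyond the keratin cluster and had a start-site peak in both of these libraries and in KYSE-150 library 7, with fold enrichments of 5.28, 4.45 and 4.21. KYSE-150 library 8 had peaks at PKP3 and EPPK1 (2 of 10, against 0.897% of all genes) and KYSE-150 library 7 at JUP alone (2.89%). KYSE-30 library 4 and HET-1A library 1 had none of the 10, against 6.52 and 0.471%.

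Of 15 intermediate filament genes outside the clusters, 8 had a peak in each of HET-1A library 2 and KYSE-30 library 6, against 51.1 and 41.6% of all genes. LMNA and LMNB1, the genes of nuclear lamins, had start-site peaks in both. VIM, the mesenchymal filament gene, had a start-site peak in KYSE-30 library 6 with a fold enrichment of 5.37 and none within 10 kb in HET-1A library 2. The 34 hair keratin-associated protein genes lie inside the chromosome 17 cluster. Of these, 6 had a peak within 10 kb in HET-1A library 2 (17.6%, against 51.1% of all genes). In KYSE-30 library 6, 0 had one (against 41.6%), in the same span that held no keratin peak there. KRTAP1-1, KRTAP2-1 and KRTAP2-2 each had 1 peak of fold enrichment 4.28, and KRTAP4-8, KRTAP4-9 and KRTAP4-16 each had 1 of 5.30. The 6 genes are thus not 6 separate peaks. These are counts of called peaks, with no test of the difference between libraries.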
